A study of Homo sapiens with 6 samples.

Results

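Expression of 10 genes that take up, store, export and sense iron was examined in RL95-2 cells cultured with or without ADP-CM, the medium conditioned by mature human adipocytes. The genes were taken by symbol from the RNA-seq count tables, which list 23228 genes in all, and all 10 symbols were present. RL95-2 is an established human endometrial cancer line, so the results describe 1 line. Cells were grown in RPMI with 10% FBS and then kept for 24 h without serum, in RPMI mixed with an equal volume of either DMEM (control, 3 libraries) or ADP-CM (3 libraries). The adipocytes came from visceral fat, and only their filtered medium reached the cells. The labels do not say whether the 3 libraries of a group came from separate cultures, so p-values measure the spread between these libraries, which may be technical.

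Cells take up iron bound to transferrin through the transferrin receptor, reduce it in the endosome and move it into the cytosol. Iron that is not used at once is held in ferritin, a shell built of a heavy and a light chain, and is released again when ferritin is degraded in lysosomes. Ferroportin is the known exporter of free iron. When iron is scarce, the iron regulatory proteins IRP1 and IRP2 bind hairpins in mRNA called iron-responsive elements (IREs). Binding in the 5' UTR blocks translation, as in ferritin mRNA, whereas binding in the 3' UTR of the transferrin receptor mRNA protects it from decay. Read counts can therefore follow the receptor side of this switch, while a change in ferritin translation alone would not appear in them.

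The IRE-like hairpins of the measured genes are shown first, since they are the sequence feature on which this regulation acts. Annotated UTRs of protein-coding transcripts were searched on the transcribed strand for CNNNNNCAGTGN followed by 5 bases that pair with the 5 N bases after the first C, with G-T pairs allowed. Such a hairpin was found in 180 of 19403 genes with a UTR (0.928%) and in 4 of the 10 iron genes. These 4 genes are known for an IRE, so their matches were not a test against that share. The sites below are 29 bases of the GRCh37 genome, which is the hg19 build of the alignment, written 5′ to 3′ on the strand of the gene, with the first 5 bases of the loop in capitals.
FTH1, 5' UTR, chr11:61735046-61735074, minus strand: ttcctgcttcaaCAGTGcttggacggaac
FTL, 5' UTR, chr19:49468592-49468620, plus strand: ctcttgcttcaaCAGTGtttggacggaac
SLC40A1, 5' UTR, chr2:190445387-190445415, minus strand: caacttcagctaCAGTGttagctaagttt
TFRC, 3' UTR, chr3:195777850-195777878, minus strand: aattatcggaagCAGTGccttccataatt
TFRC, 3' UTR, chr3:195777446-195777474, minus strand: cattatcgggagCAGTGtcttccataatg
TFRC, 3' UTR, chr3:195777381-195777409, minus strand: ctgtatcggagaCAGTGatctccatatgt
TFRC, 3' UTR, chr3:195777334-195777362, minus strand: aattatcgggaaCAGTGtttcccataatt
TFRC carried 4 matching hairpins within its 3' UTR, and the ferritin genes and SLC40A1 carried 1 each in the 5' UTR. SLC11A2 held no sequence of this strict form in the UTRs searched, which says only that these letters are absent there.

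Library depth ran from 16262614 to 18363033 reads on genes. The epithelial identity of the line was checked with 8 markers, all of which were tested. EPCAM, KRT8 and KRT18 were well expressed in every library. CDH1, KRT19, CLDN4 and PAX8 had at least 885 reads in each. MUC1 was low, with 12, 21 and 15 reads in control and 34, 25 and 68 in ADP-CM. The summed level of the 8 markers, most of it KRT8 and KRT18, ranged from 4144 to 4217 CPM in control and from 3490 to 3539 CPM in ADP-CM. CPM are counts per 1000000 reads after TMM scaling between libraries. With ADP-CM 2 markers were higher and 5 lower at an adjusted p-value under 0.01 (edgeR), or 87.5%. Of all tested genes 26.5% passed, and 43.8% of those with at least 100 CPM. KRT19 (log2 fold change -0.85) and MUC1 (1.27) were past 1.5-fold, and EPCAM (0.01) did not pass. None of 8 adipocyte markers and none of 8 leukocyte and macrophage markers had enough reads to be tested. Their summed levels were at most 1.30 and 0.493 CPM in any library, and ADIPOQ, LEP, AIF1 and MARCO had 0 reads throughout. Of 8 erythroid markers, 7 had 0 reads in every library. The 8 stromal markers summed to between 61.5 and 68.5 CPM in control and between 78.3 and 79.3 CPM in ADP-CM, nearly all of it COL1A1. What part the lower epithelial and higher stromal sums have in the iron results was not tested.

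Of the 10 iron genes, 9 had enough reads to be tested, and 5 of these differed between the groups past an adjusted p-value of 0.01 by the edgeR quasi-likelihood test. The transferrin receptor gene TFRC fell by 12.2%. The ferritin gene FTH1 fell by 11.4% and FTL fell by 9.81%. By contrast STEAP3 and SLC11A2, which act downstream of the receptor in the endosome, rose by 18.9% and 14.3%. Across all 12663 tested genes 26.5% passed the same threshold, 13.5% upward and 13% downward. Highly expressed genes passed more often. Among the 2703 genes with a mean of at least 100 CPM the share was 43.8%, and of the 5 iron genes in that range 3 passed. None of the 9 genes passed a 1.5-fold change as well, the size limit of the study's pathway analysis, with edgeR or with DESeq2. Of all tested genes only 2.27% did with edgeR, so 0 of 9 does not set these genes apart. Without that limit on size 6 of the 9 had an unadjusted p-value under 0.05 in edgeR's test. Counts at this unadjusted limit, here and below, stand without a share of all tested genes, so they set no genes apart. At an adjusted p-value under 0.05, 2 of the 9 were higher and 4 lower (edgeR). Of all 12663 tested genes 2326 were higher and 2319 lower at that limit. In these bulk libraries, fewer cells of a kind and less RNA per cell cannot be told apart.

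**Figure D1:**
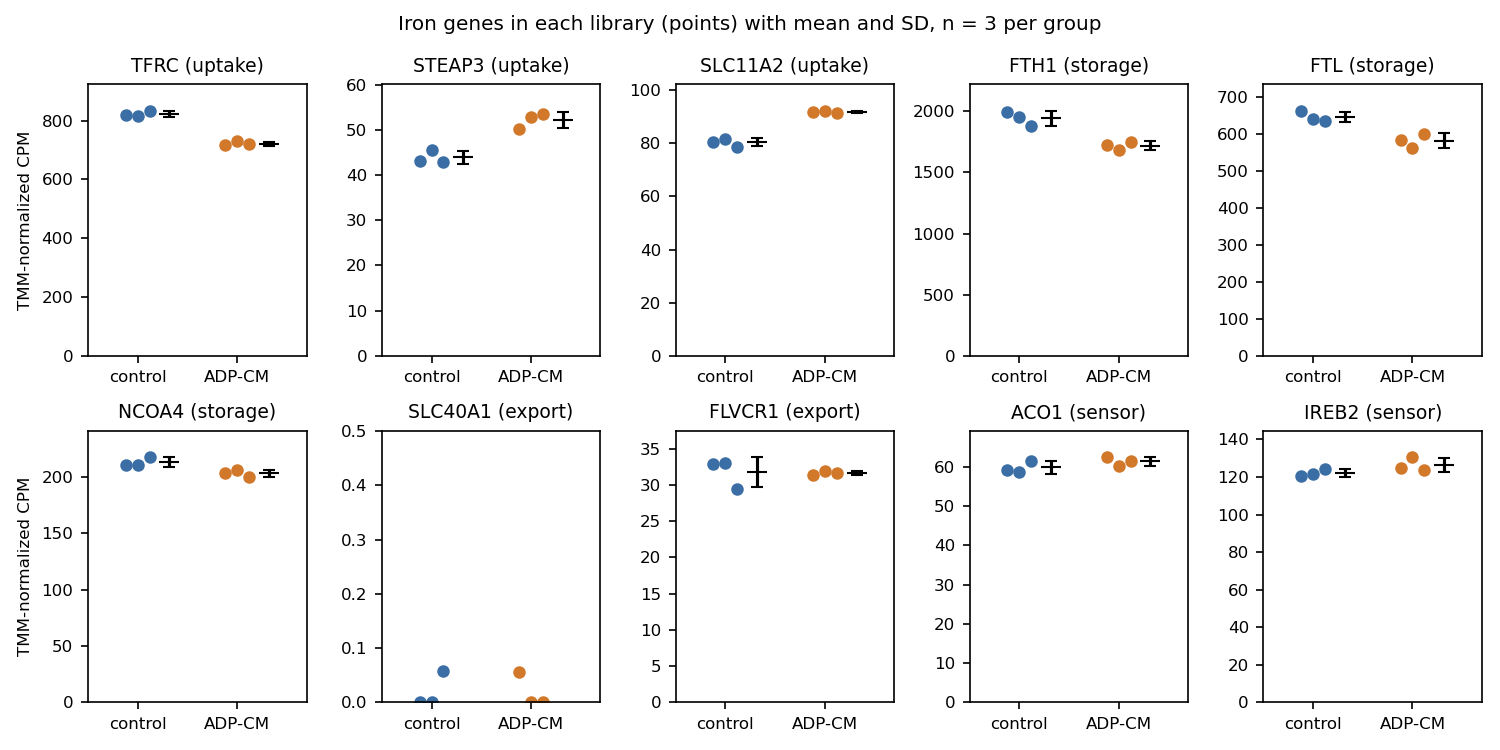
TMM-normalized CPM (vertical axes, from 0) of the 10 iron genes in the 3 control (blue) and 3 ADP-CM (orange) libraries, 1 point a library, with the mean and SD beside them except for SLC40A1, which had at most 1 read. TFRC, FTH1, FTL and NCOA4 sit lower in all 3 ADP-CM libraries, STEAP3 and SLC11A2 sit higher, and the groups overlap for FLVCR1, ACO1 and IREB2.

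Among the uptake genes, TFRC (chromosome 3, 195739382 to 195809024, minus strand) encodes transferrin receptor 1, which carries iron-loaded transferrin into the cell. It had 819.4, 814.2 and 833.0 CPM in control and 716.0, 729.3 and 720.3 CPM in ADP-CM, from 12963 to 14244 reads a library. Every ADP-CM library lay below every control library, as it did or lay above for 45.5% of all tested genes. The mean fell from 822.2 ± 9.70 to 721.9 ± 6.77 CPM (SD, n = 3 each), which is -0.19 ± 0.019 on the log2 scale (fold change and its standard error, SE). The adjusted p-value by edgeR was 4.64e-13. TFRC ranked 89 of 12663 by mean CPM. In size, its change was larger than that of 71.8% of all tested genes.

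STEAP3 (chromosome 2, 119981407 to 120023228, plus strand) encodes the endosomal reductase that converts ferric to ferrous iron. It moved the other way, with 43.2, 45.5 and 43.0 CPM in control and 50.2, 52.8 and 53.6 CPM in ADP-CM. The groups did not overlap, and the lowest ADP-CM library was above the highest control library. The log2 fold change of 0.25 ± 0.046 (SE) was the largest of the 9 genes (adjusted p-value 1.12e-05, edgeR). An antisense gene lies opposite 10.96% of its exonic bases, and the strand setting of the counting is not given in the sources used here.

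SLC11A2 (chromosome 12, 51373184 to 51422349, minus strand) encodes the divalent metal transporter DMT1, which moves ferrous iron across the endosomal or apical membrane. Its levels were 80.4, 81.7 and 78.7 CPM in control and 91.7, 92.1 and 91.5 CPM in ADP-CM. The 3 ADP-CM libraries lay within 1 CPM of each other and above all control libraries. The log2 fold change was 0.19 ± 0.035 (SE), and edgeR gave an adjusted p-value of 7.08e-06. Transcripts of SLC11A2 with and without an IRE at the 3' end are counted together in a gene total, so a shift between them could not be read.

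Of the 3 storage genes, FTH1 and FTL fell and NCOA4 did not pass the threshold. FTH1 (chromosome 11, 61727190 to 61735106, minus strand), the ferritin heavy chain with ferroxidase activity, had 1996, 1952 and 1877 CPM in control and 1726, 1683 and 1751 CPM in ADP-CM. Its highest ADP-CM library was below its lowest control library. The mean fell from 1942 ± 59.9 to 1720 ± 34.3 CPM (SD, n = 3 each). On the log2 scale this was -0.18 ± 0.018 (SE; adjusted p-value 1.22e-12, edgeR). FTH1 ranked 18 of all tested genes by mean CPM. In the annotation 63.2% of its exonic bases lie opposite BEST1, for which at most 3 reads were counted in any library. Ferritin genes also have near-identical processed pseudogenes, and reads that fit more than 1 place were not counted, so both ferritin levels are uncertain as levels. The pseudogene FTH1P3 held 12 to 14 reads in control and 13 to 22 in ADP-CM.

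FTL (chromosome 19, 49468566 to 49470136, plus strand), the light chain that supports iron mineral formation, had 662.9, 641.4 and 635.4 CPM in control and 584.4, 563.4 and 601.5 CPM in ADP-CM. The groups did not overlap. The log2 fold change was -0.15 ± 0.021 (SE), and edgeR gave an adjusted p-value of 2.42e-08. NCOA4 (chromosome 10, 51565199 to 51590734, plus strand), the receptor that delivers ferritin to lysosomes, had 210.7, 210.1 and 217.7 CPM in control and 203.5, 205.7 and 199.6 CPM in ADP-CM. Although these groups did not overlap either, the log2 fold change of -0.07 ± 0.026 (SE) did not pass the threshold of 0.01 (adjusted p-value 0.0308, edgeR).

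Of the export genes, the ferroportin gene was close to absent at the RNA level. SLC40A1 (chromosome 2, 190425316 to 190448484, minus strand), which encodes ferroportin, had 0, 0 and 1 read in control and 1, 0 and 0 in ADP-CM. Both groups were under the limit of 3 reads that a count of 0 allows, for counting error only, so no fold change is given and a difference was not detectable at this depth. FLVCR1 (chromosome 1, 213031617 to 213072705, plus strand), known as an exporter of heme and also linked to choline transport, had 32.9, 33.0 and 29.4 CPM in control and 31.37, 31.95 and 31.70 CPM in ADP-CM. The ADP-CM libraries lay within the range of the controls. Its log2 fold change was 0.00 at 2 decimals with a 95% interval from -0.11 to 0.11 (adjusted p-value 0.971, edgeR).

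The iron sensors did not pass the threshold. ACO1 (chromosome 9, 32384601 to 32454767, plus strand) encodes IRP1, which is a cytosolic aconitase when it holds an iron-sulfur cluster. It had 59.2, 58.8 and 61.6 CPM in control and 62.6, 60.3 and 61.7 CPM in ADP-CM, with a log2 fold change of 0.04 and a 95% interval from -0.04 to 0.12 (adjusted p-value 0.493, edgeR). IREB2 (chromosome 15, 78729773 to 78793795, plus strand) encodes IRP2, which is degraded in iron-replete cells. It had 120.4, 121.5 and 124.5 CPM in control and 125.0, 130.8 and 123.9 CPM in ADP-CM, and the groups overlapped. The log2 fold change was 0.05 with a 95% interval from -0.01 to 0.11 (adjusted p-value 0.199, edgeR). Both proteins are known to be controlled largely after transcription, which read counts do not measure.

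**Figure D2:**
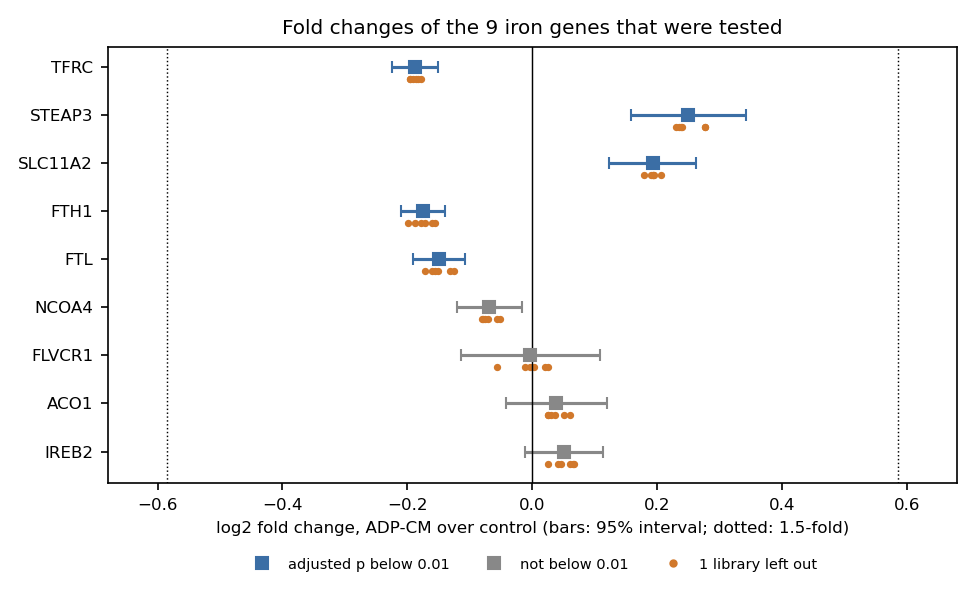
Log2 fold change of ADP-CM over control (horizontal axis) for the 9 tested iron genes, with bars for the 95% interval, blue squares where the adjusted p-value was below 0.01, grey squares where it was not, and orange dots for the 6 fits that each left out 1 library. All squares lie inside the dotted 1.5-fold lines, and the dots of TFRC, FTH1 and FTL stay below 0 while those of STEAP3 and SLC11A2 stay above it.

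The calls of the 5 genes did not rest on single libraries. In the 6 fits that each left out 1 library, the log2 fold change ran from -0.20 to -0.18 for TFRC, from -0.20 to -0.16 for FTH1, from -0.17 to -0.13 for FTL, from 0.18 to 0.21 for SLC11A2 and from 0.23 to 0.28 for STEAP3. The largest adjusted p-value in these fits was 0.000420, for STEAP3 (edgeR). NCOA4 ranged from -0.08 to -0.05 and did not pass 0.01 in any of these fits, with adjusted p-values from 0.0184 to 0.175 (edgeR).

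The balance of uptake to storage was read within each library, where no scaling between libraries enters. TFRC had 0.411, 0.417 and 0.444 reads for each FTH1 read in control and 0.415, 0.433 and 0.411 in ADP-CM. The groups overlapped, and the mean log2 ratio differed by -0.01 (exact permutation test, two-sided, p = 0.7, n = 3 each). FTL had 0.332, 0.329 and 0.338 reads for each FTH1 read in control and 0.339, 0.335 and 0.344 in ADP-CM. The mean log2 ratio was 0.03 higher in ADP-CM and the groups overlapped (exact permutation test, two-sided, p = 0.2, n = 3 each). With 3 libraries against 3 this test cannot go below 0.1, so neither ratio could have passed 0.05, and the p-values do not show that the genes fell alike.

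**Figure D3:**
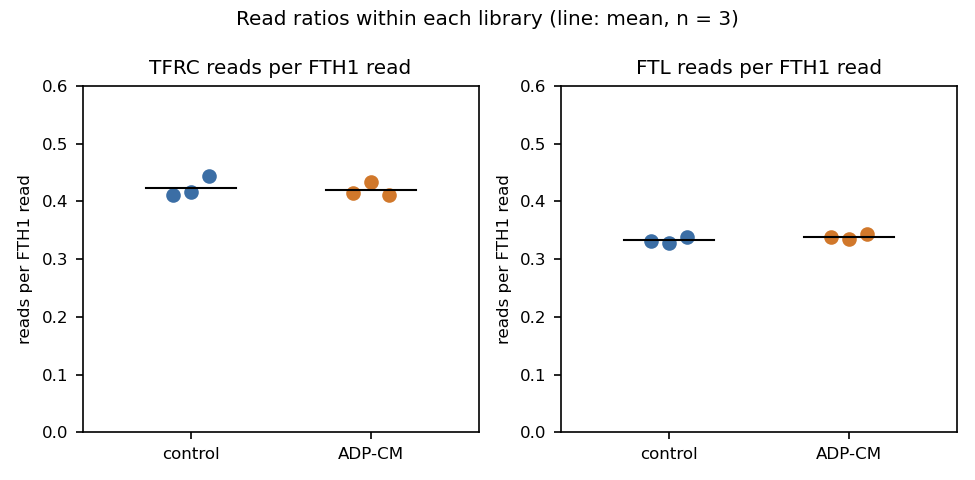
TFRC reads (left) and FTL reads (right) for each FTH1 read (vertical axes, from 0) in the control (blue) and ADP-CM (orange) libraries, 1 point a library, with a line at the mean. Both groups cover overlapping ranges in each panel, from 0.411 to 0.444 for TFRC and from 0.329 to 0.344 for FTL.

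To compare levels between genes, CPM were divided by the length of all annotated exons of each gene in kilobases. On this scale the ferritin genes stood far above the rest in control cells, with FTH1 at 969.0 ± 29.9 and FTL at 742.3 ± 16.6 CPM per kilobase (SD, n = 3). NCOA4 followed at 53.4 ± 1.06 and TFRC at 47.3 ± 0.558. Next came IREB2 at 11.3 ± 0.198, STEAP3 at 9.63 ± 0.311, SLC11A2 at 8.12 ± 0.153, ACO1 at 7.92 ± 0.204 and FLVCR1 at 4.95 ± 0.318. SLC11A2 and ACO1 did not differ beyond their spread. The order depends on the length used, because the annotated exons of TFRC span 17376 bases and its longest transcript 6872. With the longest transcript TFRC rose to 119.6 CPM per kilobase, above NCOA4 at 61.0, and SLC11A2 to 19.4, level with IREB2 at 19.3. FTH1 and FTL stayed first and second.

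Transcripts known for an IRE moved in both directions. Of 9 such genes 7 were tested, and 3 were lower and 2 higher at an adjusted p-value under 0.01 (edgeR), with a median log2 fold change of 0.04 against 0.00 over all tested genes. The 5 that passed were 71.4% of those tested, beside 26.5% of all tested genes and 43.8% of those with at least 100 CPM, and 4 of them are iron genes already described. The lower ones were TFRC, FTH1 and FTL. The higher ones were SLC11A2 and EPAS1. EPAS1 encodes the hypoxia-inducible factor HIF-2α and had a log2 fold change of 0.14 (adjusted p-value 0.000511, edgeR). Without ADP-CM replicate 1 its adjusted p-value was 0.0132. CDC14A and CDC42BPA did not pass the threshold, and ALAS2, the erythroid heme synthesis enzyme, had 0 reads in every library. The ferritin genes with an IRE in the 5' UTR and TFRC with its hairpins in the 3' UTR were thus both among the lower ones.

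Other genes of iron handling were read from 5 lists with 84 genes, of which 83 were in the tables and 64 were tested. Of these 12 were higher and 6 lower at an adjusted p-value under 0.01 (edgeR), or 28.1%, beside the 26.5% of all tested genes given above. Their median log2 fold change was 0.00. The share was thus near the background for the 5 lists together, and it differed from list to list.

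Of 9 tested genes for other routes of iron uptake and reduction, 5 were higher and 0 lower (55.6%). Across all tested genes 26.5% passed, 13.5% upward, and among those with at least 100 CPM 43.8% passed. The 9 genes had a median log2 fold change of 0.18. DESeq2 gave the same 5 and 0, and 0 had a lower level at an unadjusted p-value under 0.05 in edgeR's test. STEAP1 (chromosome 7, 89783770 to 89794143) and its neighbour STEAP2, both relatives of STEAP3, were higher. STEAP1 had 72, 78 and 78 reads in control and 139, 156 and 128 in ADP-CM, or 4.54 ± 0.0926 and 7.71 ± 0.774 CPM (SD, n = 3 each). Its log2 fold change of 0.76 ± 0.13 (SE) was the only one of the 64 genes past 1.5-fold (adjusted p-value 1.11e-06, edgeR). STEAP2 rose from 17.03 ± 1.02 to 21.4 ± 0.278 CPM, a log2 fold change of 0.33 (adjusted p-value 8.35e-05, edgeR). STEAP4 had at most 1 read in any library, so the 3 STEAP genes that could be tested were all higher.

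LCN2, a secreted protein that binds iron-carrying siderophores, had 331.9, 317.0 and 312.6 CPM in control and 394.1, 395.5 and 404.4 CPM in ADP-CM. All ADP-CM libraries were above all controls, with a log2 fold change of 0.31 and an adjusted p-value of 2.59e-18 (edgeR). SLC39A14, the ZIP14 transporter of zinc, manganese and iron not bound to transferrin, rose from 337.4 ± 5.64 to 382.0 ± 5.75 CPM (log2 fold change 0.18, adjusted p-value 8.07e-10, edgeR). SLC25A37, or mitoferrin 1, which brings iron into mitochondria, rose from 98.1 ± 3.31 to 113.7 ± 4.27 CPM (log2 fold change 0.21, adjusted p-value 5.08e-07, edgeR). Transferrin itself (TF) had 1 read in 1 library and 0 in the others, and TFR2, the second transferrin receptor, had at most 3.

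Of 19 tested genes of heme synthesis and breakdown, 2 were higher and 5 lower (36.8%), beside 26.5% of all tested genes. Among all genes with at least 100 CPM the share was 43.8%. With DESeq2 2 of the heme genes were higher and 2 lower, beside 1030 higher and 953 lower among 16801 genes. ALAS1, which catalyses the first step of heme synthesis outside erythroid cells, had 124.2, 127.6 and 126.3 CPM in control and 98.4, 101.5 and 101.6 CPM in ADP-CM. The groups lay far apart for their spread, with a log2 fold change of -0.33 ± 0.032 (SE; adjusted p-value 2.93e-13, edgeR). FECH, which inserts iron into the porphyrin at the last step, had a log2 fold change of -0.14 (adjusted p-value 0.00121, edgeR), a call that was lost without control replicate 2 (adjusted p-value 0.0175) and with DESeq2 (0.0185). CPOX, an intermediate step, rose by 0.15 on the log2 scale (adjusted p-value 0.000428, edgeR), or 0.0113 without ADP-CM replicate 1.

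HMOX1, the inducible heme oxygenase that frees iron from heme, had 136.5, 136.5 and 128.5 CPM in control and 163.5, 161.6 and 166.1 CPM in ADP-CM. The ADP-CM libraries were all higher, with a log2 fold change of 0.29 ± 0.030 (SE; adjusted p-value 1.52e-12, edgeR). SLC48A1, the endolysosomal heme transporter HRG1, fell from 160.1 ± 2.80 to 141.3 ± 1.89 CPM (log2 fold change -0.18, adjusted p-value 6.26e-07, edgeR). The remaining lower genes, BLVRB and TMEM14C, had adjusted p-values of 0.00924 and 0.00744 (edgeR) that rose above 0.01 with DESeq2. The call of BLVRB was also lost with plain library sizes (adjusted p-value 0.0110, edgeR). Without control replicate 2, control replicate 3, ADP-CM replicate 1 or ADP-CM replicate 2 its adjusted p-values ran from 0.0246 to 0.0686 (edgeR). For TMEM14C leaving out ADP-CM replicate 1, control replicate 2 or control replicate 3 had this effect (0.0643 to 0.128).

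Of 25 tested genes of iron-sulfur cluster assembly 4 were higher and 1 lower, or 20%, beside the 26.5% of all tested genes. MMS19 and CIAO1, which hand clusters to cytosolic and nuclear proteins, rose with log2 fold changes of 0.22 and 0.18 (adjusted p-values 2.15e-08 and 5.21e-06, edgeR). HSPA9, the mitochondrial chaperone of the process, had a log2 fold change of 0.08 (adjusted p-value 0.000344, edgeR). ISCA2 had 0.18 (adjusted p-value 0.00737, edgeR), which was above 0.01 with DESeq2. It ran from 0.0217 to 0.0616 without control replicate 1, control replicate 3, ADP-CM replicate 1 or ADP-CM replicate 2. BOLA3, a mitochondrial late-acting factor, fell from 54.7 ± 0.559 to 45.8 ± 2.46 CPM, a log2 fold change of -0.26 (adjusted p-value 5.48e-06, edgeR).

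Of 8 tested iron chaperones and genes of sensor turnover 1 was higher and 0 lower (12.5%), beside 26.5% of all tested genes. The higher gene was HERC2, a ubiquitin ligase known to act on NCOA4, with a log2 fold change of 0.14 (adjusted p-value 0.000465, edgeR). FBXL5, which targets IRP2 for degradation, had a log2 fold change of 0.01, and the iron chaperone genes PCBP1 and PCBP2 had -0.04 and 0.01, none past the threshold. Of 3 tested genes of export and the hepcidin axis 0 passed with edgeR or DESeq2, and 1 was higher and 1 lower at an unadjusted p-value under 0.05 in edgeR's test. HAMP, which encodes hepcidin, the hormone that causes ferroportin to be degraded, had at most 1 read in any library, and HEPH, a ferroxidase that works with ferroportin, had 0 reads in every library.

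**Figure D4:**
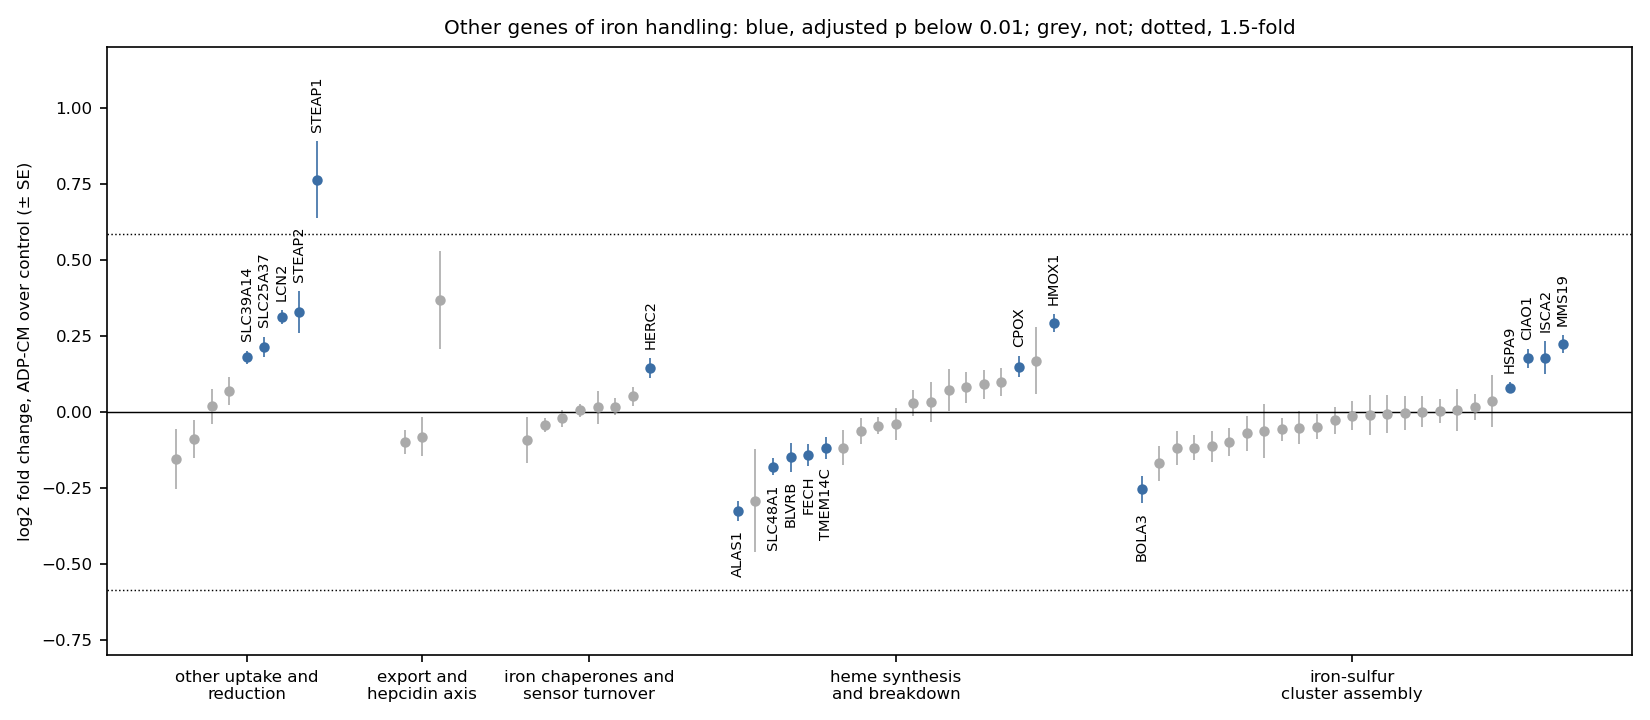
Log2 fold change of ADP-CM over control (vertical axis, bars for the standard error) of the 64 tested genes of the 5 other iron lists, ordered by value within each list, blue and named where the adjusted p-value was below 0.01 and grey where it was not. STEAP1 alone lies past the dotted 1.5-fold line, the other uptake genes that passed are all above 0, and most iron-sulfur cluster genes lie close to 0.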

How the data were processed

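RNA of RL95-2 cells was sequenced as stranded poly(A) libraries with 50 bp single reads. Per the labels and the methods of the study, the authors aligned reads to hg19 with TopHat2 and counted them on RefSeq genes with HTSeq; versions and the strand setting are not given in the sources used here. The deposited values are raw read counts per gene for 6 libraries. HTSeq's summary lines, 31.4% to 31.6% of reads in control and 32.9% to 33.0% in ADP-CM, were left out of library sizes and tests. Reads on no gene made up 10.2% to 10.3% and 11.5% to 11.6%.

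Counts were normalized by TMM, filtered with filterByExpr (12663 of 23228 genes kept) and compared in edgeR 4.0.16 (R 4.3.3) with its quasi-likelihood F-test, adjusted after Benjamini and Hochberg over all tested genes, after a test of the scripts on simulated data. Standard errors are the log2 fold change divided by the root of the F statistic. Alternatives were DESeq2 1.42.0, other scaling, filters and thresholds, a replicate term and each library left out. Read ratios were compared by exact permutation tests (SciPy 1.17.1). Positions, lengths, overlaps and UTRs came from GENCODE 44 on GRCh37. No 2 replicates agreed within sampling noise, with a chi-square per degree of freedom from 1.23 to 2.05. The spread beyond that noise was small, at 1.67% (common biological coefficient of variation in edgeR). The 10 genes, the lists and the tests were chosen with earlier results of these data known. Named were the 10 genes, per list up to 5 genes with the smallest adjusted p-values under 0.01, and any past 1.5-fold; BLVRB, TMEM14C, EPAS1 and genes short of the threshold were named after their values were seen. A further gene known for an IRE is not part of that list and is not reported here.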

Additional observations from a re-analysis of the deposited data

How the results depend on the processing

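The calls of the 10 iron genes, 2 higher and 3 lower, were the same in number under every alternative of scaling, filter and test and with each library left out, and an adjusted p-value limit of 0.05 in place of 0.01 gave 4 lower. FLVCR1, which was not called, changed sign, with log2 fold changes of 0.02 without control replicate 1, 0.026 without control replicate 2 and 0.0030 without ADP-CM replicate 1, in a range from -0.057 to 0.026. The difference in the log2 ratio of TFRC to FTH1 reads also changed sign, to 0.021 without control replicate 3 and 0.0016 without ADP-CM replicate 3, in a range from -0.036 to 0.021. With DESeq2 1030 genes were higher and 953 lower over the whole table, in place of 1707 and 1650, and 176 in place of 288 passed 1.5-fold. Of the genes of the 5 other iron lists 3 were lower with DESeq2, and between 3 and 6 with a library left out, where the 3 came without control replicate 2. With the longest transcript as length, levels in control were 119.6 CPM per kilobase for TFRC, 10.3 for STEAP3, 19.4 for SLC11A2, 1614 for FTH1, 61.0 for NCOA4, 5.37 for FLVCR1 and 19.3 for IREB2. Deviations from the group mean correlated weakly between same-numbered libraries (0.07, 0.01 and 0.10), and between differently numbered ones from -0.09 to 0.03. Of 6 libraries 5 correlated best with their own number. Such small correlations from 3 libraries a group cannot settle whether the numbers pair the libraries. With a replicate block the iron genes again had 2 higher and 3 lower, and 1786 and 1716 of all genes passed. Depth limits SLC40A1, and the intervals of FLVCR1, ACO1 and IREB2 leave changes of up to about 0.12 on the log2 scale undetected.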
